A study of Saccharomyces cerevisiae with 21 samples.

Results

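The yeast proteasome is covered here by 37 genes of its subunits and factors, out of 5408 genes named on the arrays of the series. They were matched by symbol: 14 genes of the core particle, 9 of the base, 9 of the lid, RPN10 at the hinge of base and lid, and 4 factors (RPN4, UMP1, ECM29 and BLM10). All 37 had 1 probe each in both tables of values and a value on each of the 12 arrays, so none was lost to the requirement of 3 measured arrays per radiation. They lie on 13 chromosomes, and no pair of them are neighbouring genes.

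Cells of the S288C laboratory strain of Saccharomyces cerevisiae, with no mutation named in the labels, were irradiated cold in saline and then grown for 40 min at 25 C in fresh YPD medium. The irradiated groups received thermal neutrons (20.8 Gy over 20 h), carbon ions (25 Gy at 290 MeV per nucleon over 10 min), gamma rays from a caesium source (17 Gy over about 20.5 h) or fast neutrons (20.3 Gy of net fast neutrons within a total of 21.4 Gy). Each array compared polyA RNA of such a culture (Cy5) with RNA of an unirradiated culture held cold and grown again in the same way (Cy3), and each radiation had 3 arrays from independently collected samples. In the thermal neutron beam, thermal neutrons gave 1.0 to 2.0 of the 17 mGy/min. Type of radiation, dose and time in the cold changed together, so their parts in any difference between radiations cannot be told apart. For fast neutrons the labels give 336 min in one place and 19 h in another, and the stated gamma ray dose rate of 1.4 Gy/min does not match the stated dose and time.

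The proteasome degrades proteins that carry ubiquitin chains. Its core particle is a barrel of alpha and beta rings with the protease sites inside, and its regulatory particle has a base with a ring of ATPases that unfold the substrate and a lid that removes the ubiquitin chain. Rpn4 is the transcription factor that activates most proteasome genes in budding yeast, and it is a short-lived protein that the proteasome itself degrades. The arrays measured its transcript, not the protein.

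Values are log2 ratios of irradiated over control, so 1 is a doubling against the control. Means are given ± SD over 3 arrays (n = 3). Gamma ray arrays had a single scan. All other arrays had a high-power and a low-power laser scan, whose values were averaged. One array stood apart. On fast neutrons array 2 the scans correlated across genes with r = 0.70, and 8.37% of genes differed by more than 1 between them, against 0 to 0.97% on the other 8 arrays with 2 scans. Carbon ion array 3 had a like correlation between its scans (r = 0.71), but 0.88% of its genes differed by more than 1 and none of the 37. On fast neutrons array 2, 9 of the 37 proteasome genes differed by more than 1. RPT2 was at -1.75 in the high-power scan and -0.35 in the low-power scan, and PRE6 was at -1.55 and -0.026.

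The difference between these scans followed the probe number. The median of high minus low over probes whose number starts with 2 was 0.29, and it was -0.69 over those that start with 8. All 9 genes had probe numbers that start with 6, 7 or 8. Results for fast neutrons are therefore given with both scans of array 2 and with its low-power scan alone.

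**Figure D1:**
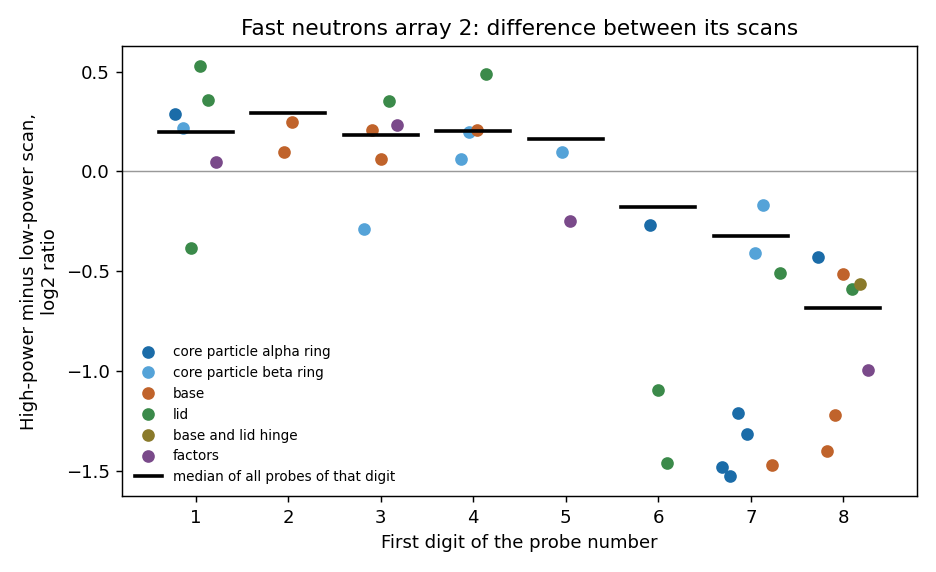
Difference between the high-power and the low-power scan of fast neutrons array 2 (log2 ratio, vertical axis) for each of the 37 proteasome genes (points, coloured by subcomplex) by the first digit of the probe number (horizontal axis). Black lines are medians over all probes of that digit, from 0.29 at digit 2 to -0.69 at digit 8, and the 9 genes beyond -1 stand at digits 6 to 8.

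After thermal neutrons the whole proteasome was higher: 36 of the 37 genes passed the test, all upward, and RPN4 did not. Their folds ran from 1.39 for RPN2 to 2.67 for RPT2. The median of the 37 genes was 1.02, against -0.044 over all 5301 genes tested. The test was limma's moderated test against 0 with Benjamini-Hochberg adjusted p under 0.05 over all genes, which called 19.9% of all genes higher and 21.2% lower. None of the 37 was lower, also at an unadjusted p under 0.05 (0 genes). Irradiated samples always carried the same dye, so dye bias of a probe remains in a ratio tested against 0 and drops out of differences between radiations measured in 1 table.

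**Figure D2:**
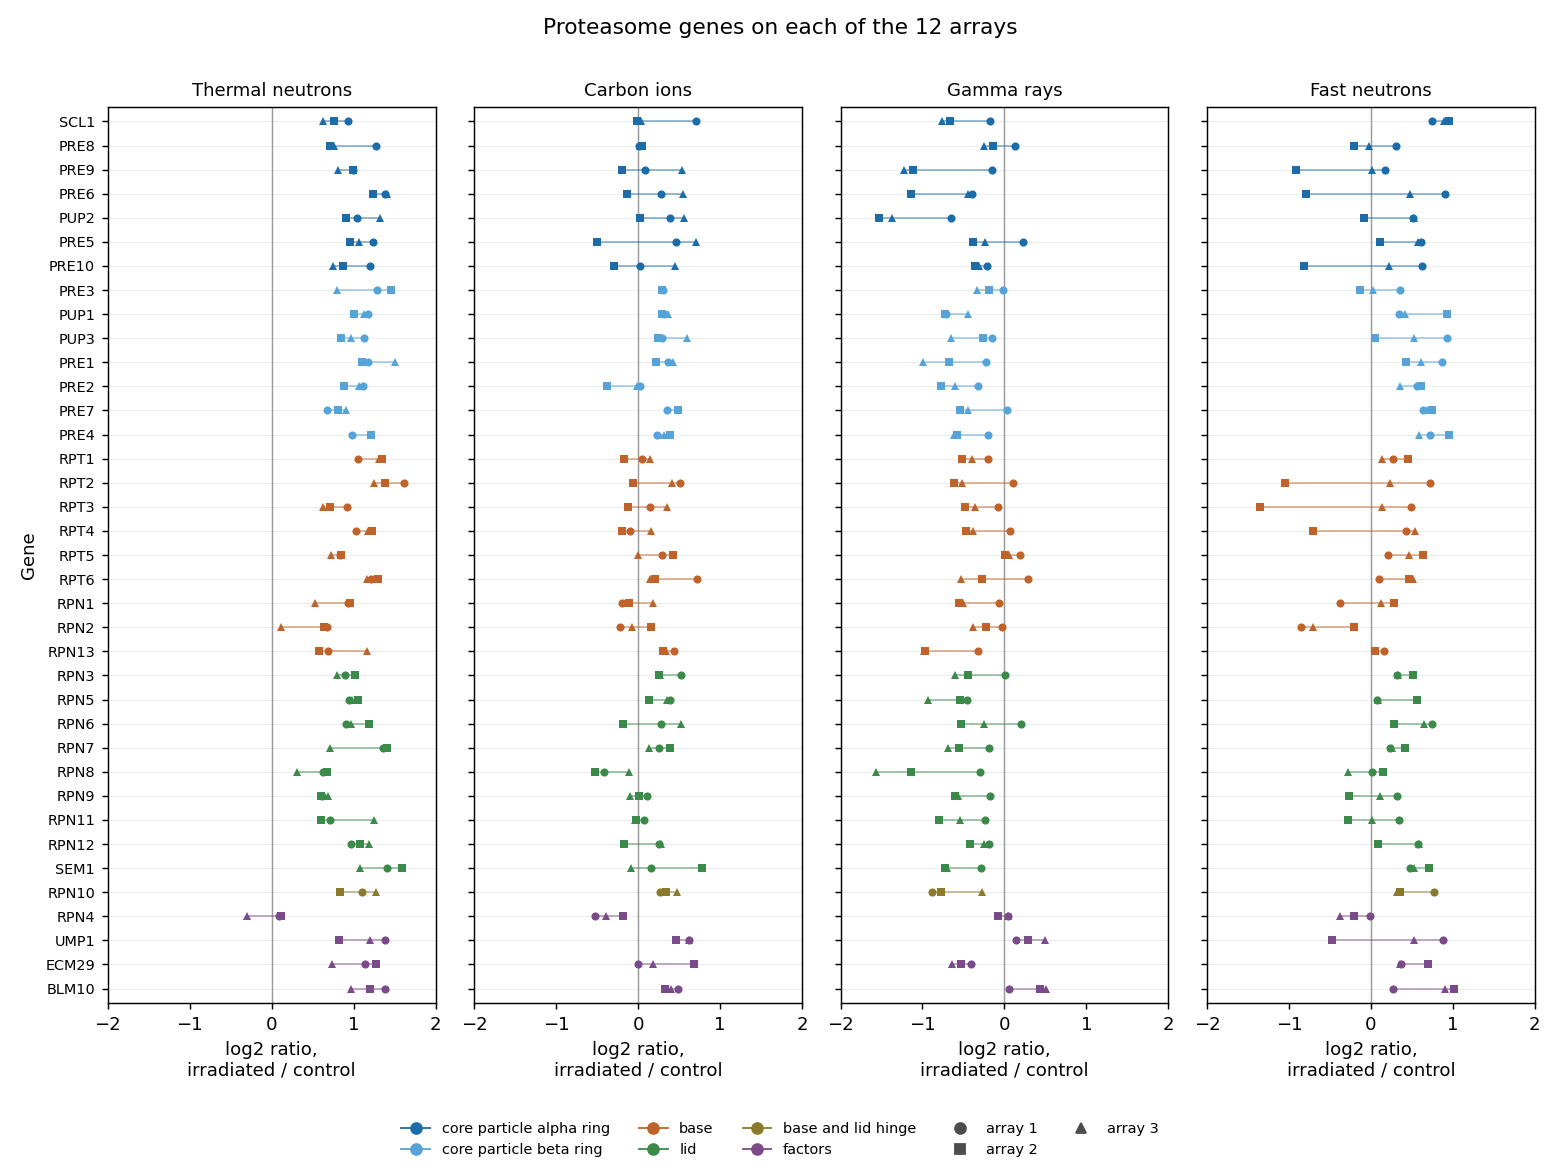
Log2 ratio of irradiated over control (horizontal axes) of each of the 37 proteasome genes (rows, coloured by subcomplex) on the 3 arrays of thermal neutrons, carbon ions, gamma rays and fast neutrons (panels; circles, squares and triangles are arrays 1, 2 and 3, joined by their range). All 33 structural subunits lie right of 0 on all 3 thermal neutron arrays, 24 lie left of 0 on all 3 gamma ray arrays, and RPN4 stands near 0 after thermal neutrons.

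In the core particle all 14 genes rose after thermal neutrons, with a median of 1.05. PRE6 (YOL038W), an alpha ring subunit, was highest at 1.38, 1.23 and 1.41 (1.34 ± 0.10, adjusted p = 0.00012). PRE1, a beta ring subunit, had 1.18, 1.11 and 1.50 (1.26 ± 0.21, adjusted p = 8.7e-05). Both were above 1 on every array. The 3 genes of the proteolytic sites also rose: PRE3 (caspase-like site) by 1.18 ± 0.34, PUP1 (trypsin-like site) by 1.10 ± 0.087 and PRE2 (chymotrypsin-like site) by 1.02 ± 0.12. The lowest of the core were SCL1, an alpha subunit, with 0.93, 0.76 and 0.63 (0.78 ± 0.15, adjusted p = 0.0034), and PRE7, a beta subunit, with 0.67, 0.80 and 0.91 (0.80 ± 0.12, adjusted p = 0.00076). Even these stayed above 0.6 on each array, and the alpha ring (median 0.94) and the beta ring (median 1.10) overlapped gene by gene.

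In the base all 9 genes rose after thermal neutrons, and they spread more widely than the core (SD over genes 0.30, against 0.16 in the core). RPT2 (YDL007W), an ATPase known for opening the gate of the core, was the highest of all 37 at 1.62, 1.38 and 1.25 (1.42 ± 0.19, adjusted p = 7.6e-05). RPT1, another ATPase, had 1.05, 1.35 and 1.31 (1.23 ± 0.16, adjusted p = 2.8e-05). The 6 ATPases had a median of 1.18. RPT3 was the lowest ATPase at 0.92, 0.71 and 0.63 (0.75 ± 0.15, adjusted p = 0.0011). The ubiquitin receptors RPN1 and RPN13, which are not ATPases, were both at 0.81 (SD 0.24 and 0.31), close to RPT3 and to RPT5 (0.80 ± 0.070). RPN2, the large scaffold that holds RPN13, had 0.67, 0.64 and 0.11 (0.47 ± 0.31, adjusted p = 0.020). Its array 3 lay well under the others, and its adjusted p reached 0.13 under an alternative setting.

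In the lid all 9 genes rose after thermal neutrons, with a median of 0.99. SEM1 (YDR363W-A), a small acidic subunit that ties lid subunits together, was highest at 1.41, 1.59 and 1.07 (1.36 ± 0.26, adjusted p = 0.00014). RPN7, a scaffold subunit, had 1.36, 1.40 and 0.71 (1.16 ± 0.39, adjusted p = 0.00020). Both were above the lid median on arrays 1 and 2, and RPN7 was below it on array 3. RPN8 and RPN9 were lowest. RPN8, the partner of the deubiquitinase RPN11, had 0.63, 0.68 and 0.31 (0.54 ± 0.20, adjusted p = 0.049), and RPN9 had 0.61, 0.60 and 0.69 (0.64 ± 0.048, adjusted p = 0.0017). The call for RPN8 lies at the threshold and was lost under some alternatives, where its adjusted p reached 0.19. RPN11 itself rose by 0.85 ± 0.35 and RPN10, a ubiquitin receptor between base and lid, by 1.07 ± 0.22.

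Of the factors, 3 of 4 rose after thermal neutrons. UMP1 (YBR173C), a chaperone of core particle assembly, had 1.38, 0.83 and 1.20 (1.14 ± 0.28, adjusted p = 7.4e-05). ECM29, a protein that binds core and regulatory particle together, had 1.13, 1.28 and 0.73 (1.05 ± 0.28, adjusted p = 0.00034). BLM10, a cap that can replace the regulatory particle on the core, had 1.38, 1.20 and 0.97 (1.18 ± 0.21, adjusted p = 5.4e-05). Their means fell inside the range of the structural subunits. RPN4 is described apart.

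After carbon ions, 3 of 37 genes rose and 0 fell at adjusted p under 0.05, where limma called 9.7% of all 5095 genes higher and 11.9% lower. At an unadjusted p under 0.05, 12 were higher and 1 (RPN4) was lower. UMP1 had 0.63, 0.46 and 0.62 (0.57 ± 0.092, adjusted p = 0.012). PRE7 had 0.35, 0.49 and 0.48 (0.44 ± 0.079, adjusted p = 0.034), and BLM10 had 0.49, 0.33 and 0.40 (0.41 ± 0.079, adjusted p = 0.044). Each was above 0 on all 3 arrays, at folds of 1.33 to 1.49. The share called is close to that over all genes, and limma made no call without array 1 (7 higher at an unadjusted p under 0.05), and 1 without array 2 or without array 3.

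Most other subunits stood slightly above the control after carbon ions without passing the test. The median of the 37 genes was 0.24, against -0.037 over all genes, and 16 genes were above 0 on all 3 arrays. Array 2 gave the lowest values: its median over the 33 structural subunits was 0.022, against 0.26 and 0.29 on arrays 1 and 3. RPN8 was below 0 on every carbon ion array, at -0.42, -0.53 and -0.11, with an adjusted p of 0.21. ECM29 had -0.0039, 0.69 and 0.18 (0.29 ± 0.36), and on array 2 its high-power scan read 0.18 and its low-power scan 1.19. SEM1 had 0.16, 0.78 and -0.091 (0.28 ± 0.45), and its array 2 value comes from 1 scan. Neither passed (adjusted p = 0.18 and 0.25).

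After gamma rays the direction was the opposite: 18 of 37 genes fell and 0 rose, where limma called 22.4% of all 4891 genes lower and 17.6% higher. At an unadjusted p under 0.05, 24 were lower and 2 (UMP1 and BLM10) were higher. The median of the 37 genes was -0.37, against -0.057 over all genes. PUP2 (YGR253C), an alpha ring subunit, had -0.65, -1.53 and -1.37 (-1.19 ± 0.47, adjusted p = 0.00045). RPN8 had -0.30, -1.15 and -1.56 (-1.002 ± 0.64, adjusted p = 0.0025), and PRE9, the only core subunit yeast can live without, had -0.15, -1.11 and -1.22 (-0.83 ± 0.59, adjusted p = 0.0067). In all 3 genes array 1 lay nearest to the control.

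Gamma ray array 1 stood closer to the control across the complex. Its median over the 33 structural subunits was -0.18, against -0.56 and -0.52 on arrays 2 and 3. Without array 1, 24 genes were lower and 1 higher, and the count of lower genes was 7 without array 2 and 8 without array 3. Shares of all genes called were not taken for these fits. Of the core, PRE6 had -0.39, -1.15 and -0.45 (-0.66 ± 0.42, adjusted p = 0.0089), and PRE1 had -0.22, -0.68 and -0.998 (-0.63 ± 0.39, adjusted p = 0.0062). Both fell. SCL1 had -0.18, -0.67 and -0.77 (-0.54 ± 0.32, adjusted p = 0.022), and PRE7 had 0.033, -0.55 and -0.45 (adjusted p = 0.069).

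In the base RPT1 and RPN13 fell after gamma rays, 2 of 9 genes, which is near the 22.4% of all genes called lower. RPT1 had -0.20, -0.52 and -0.40 (-0.37 ± 0.16, adjusted p = 0.029), and RPN13 was at -0.76 ± 0.38 (adjusted p = 0.0031). RPT2 had 0.10, -0.62 and -0.52 (adjusted p = 0.11). RPT5, an ATPase, was the one structural subunit above 0 on all gamma ray arrays, at 0.20, 0.0029 and 0.050 (adjusted p = 0.61). In the lid 6 of 9 genes fell. SEM1 had -0.28, -0.73 and -0.71 (-0.57 ± 0.25, adjusted p = 0.021), RPN7 had -0.19, -0.56 and -0.69 (-0.48 ± 0.26, adjusted p = 0.028), and RPN9 had -0.17, -0.61 and -0.57 (-0.45 ± 0.24, adjusted p = 0.011).

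The factors did not move together after gamma rays. ECM29 fell, at -0.41, -0.53 and -0.63 (-0.53 ± 0.11, adjusted p = 0.017). UMP1 had 0.14, 0.29 and 0.49 (0.31 ± 0.18, adjusted p = 0.078), and BLM10 had 0.050, 0.44 and 0.51 (0.33 ± 0.25, adjusted p = 0.058). These were above the control on all 3 arrays, on the other side of 0 from nearly all structural subunits, and neither passed the test.

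After fast neutrons, 6 of 37 genes rose and 0 fell, where limma called 5.06% of all 4936 genes higher and 5.92% lower. At an unadjusted p under 0.05, 16 were higher and 1 (RPN2) was lower. SCL1 had 0.74, 0.96 and 0.89 (0.86 ± 0.11, adjusted p = 0.020), PRE4, a beta subunit, had 0.72, 0.95 and 0.59 (0.75 ± 0.18, adjusted p = 0.029), and BLM10 had 0.27, 1.02 and 0.91 (0.73 ± 0.40, adjusted p = 0.047). PRE7, PRE1 and SEM1 also rose, by 0.69 ± 0.052, 0.64 ± 0.23 and 0.57 ± 0.12. Of these 6, 4 belong to the core particle. No call was left without array 1 or without array 3 (7 and 10 higher at an unadjusted p under 0.05), and without array 2 there were 18 higher and 1 lower. The share of all genes called was not taken without array 2, so these 18 cannot be set beside it.

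With array 2 taken from its low-power scan alone, 17 genes rose and 1 fell after fast neutrons. Limma then called 13.0% of all 4811 genes higher and 14.0% lower. The 17 held all 6 of the first count. UMP1 moved from an array 2 value of -0.47 with both scans to 0.026 in the low-power scan, beside 0.88 and 0.53 on arrays 1 and 3, and did not pass either way (adjusted p = 0.43 and 0.073). RPN2, the gene that fell, was at -0.62 ± 0.28 (adjusted p = 0.018) and at -0.59 ± 0.34 (adjusted p = 0.067) with both scans. It was below 0 on all 3 arrays. ECM29 had 0.36, 0.70 and 0.36 with both scans (adjusted p = 0.084) and rose with the low-power scan (0.44 ± 0.13, adjusted p = 0.035).

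The radiations of the first table were then compared with each other. After thermal neutrons 36 of 37 genes were higher than after gamma rays, and 0 were lower (0 also at an unadjusted p under 0.05). Limma called 20.4% of all 4843 genes higher and 17.8% lower in this difference. In the same 36 genes the thermal neutron arrays all lay above the gamma ray arrays, as they did for 27.8% of all genes, and the exception was RPN4. The largest difference was in PUP2 (1.09 ± 0.21 after thermal neutrons and -1.19 ± 0.47 after gamma rays), at 2.27 with a 95% interval of 1.74 to 2.81. PRE6 differed by 2.00 (1.49 to 2.52) and SEM1 by 1.93 (1.39 to 2.46). The smallest among those called were RPN2 at 0.69 (0.25 to 1.12) and RPT5 at 0.72 (0.35 to 1.08). All 18 genes that fell after gamma rays were among the 36 that rose after thermal neutrons. Those 36 were every member but RPN4, so this overlap was nearly fixed in advance and adds no result of its own.

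**Figure D3:**
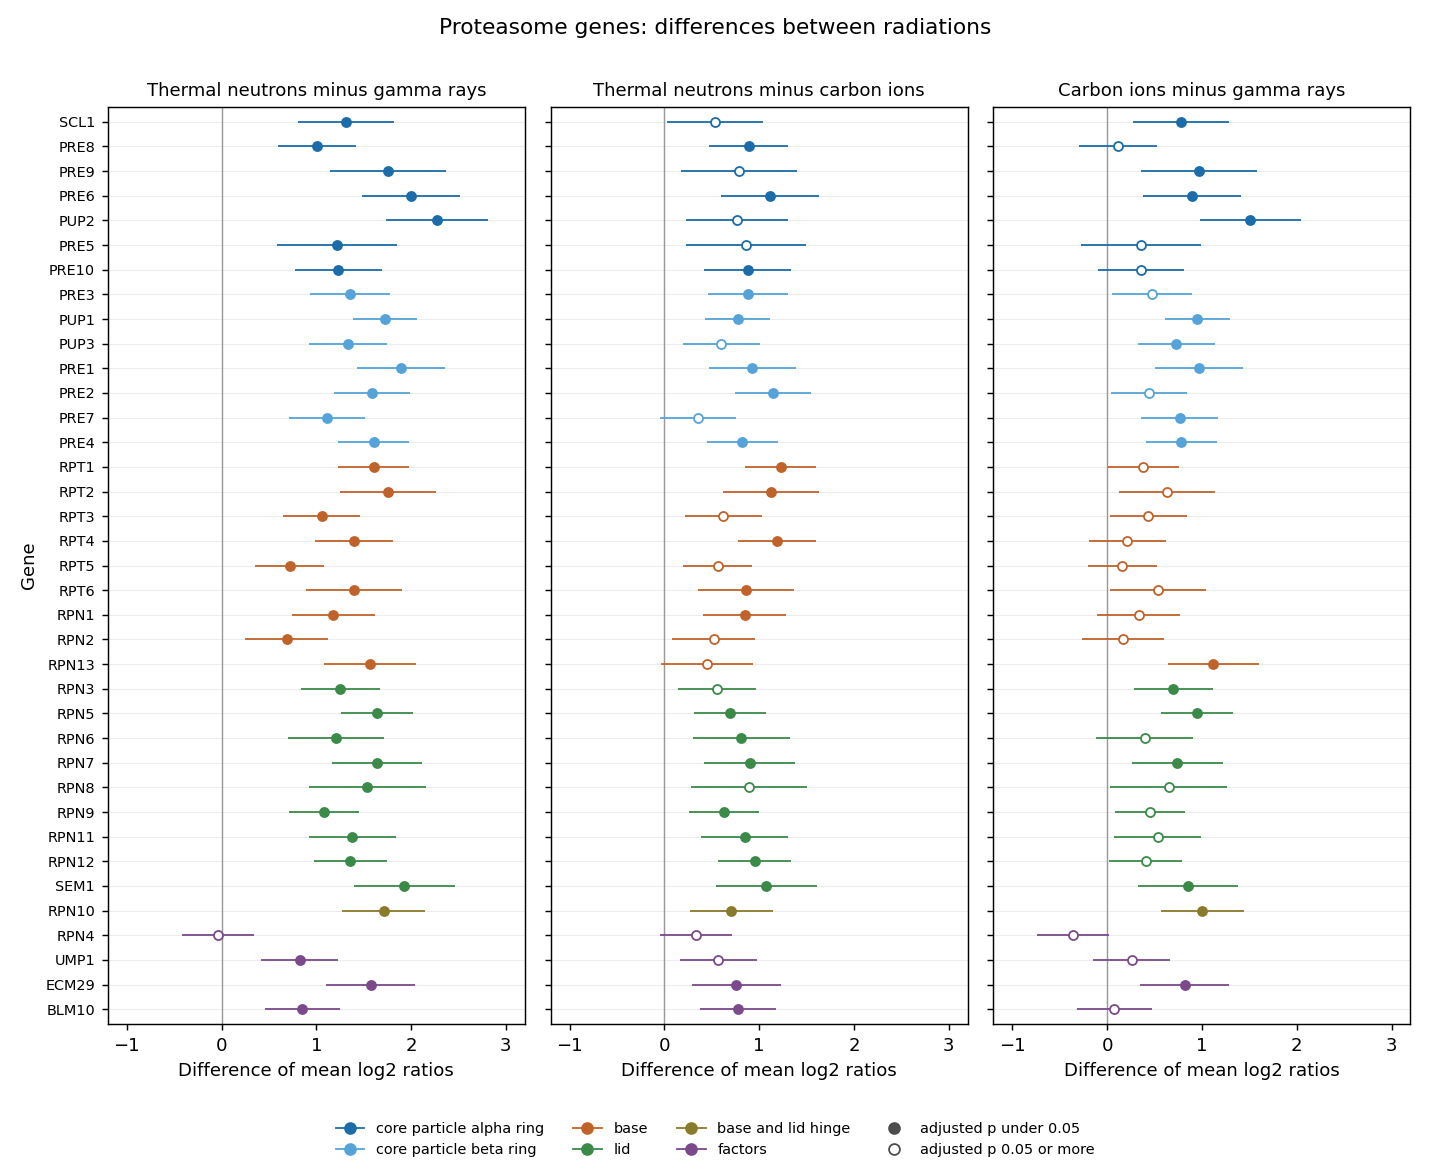
Differences of mean log2 ratios with 95% intervals (horizontal axes) for each of the 37 proteasome genes (rows, coloured by subcomplex): thermal neutrons minus gamma rays, thermal neutrons minus carbon ions and carbon ions minus gamma rays. Filled points passed at adjusted p under 0.05: 36, 23 and 16 genes, all right of 0.

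Between thermal neutrons and carbon ions the difference was smaller but ran the same way: 23 of 37 genes were higher after thermal neutrons and 0 lower (0 also at an unadjusted p under 0.05), where limma called 5.8% of all 5033 genes higher and 4.37% lower. RPT1 differed most, by 1.23 (0.85 to 1.60), with 1.23 ± 0.16 after thermal neutrons and 0.0070 ± 0.16 after carbon ions. RPT4, an ATPase, differed by 1.19 (0.78 to 1.60) and PRE2 by 1.14 (0.74 to 1.54). In 34 genes the arrays did not overlap, against 18.0% of all genes, and SCL1, RPN2 and RPN4 overlapped. Without thermal neutron array 1 the count was 5, without array 2 it was 9, and it was 8 and 11 without carbon ion arrays 1 and 2.

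After carbon ions 16 of 37 genes were higher than after gamma rays and 0 lower (0 also at an unadjusted p under 0.05), where limma called 11.4% of all 4750 genes higher and 9.35% lower. PUP2 again differed most, by 1.51 (0.98 to 2.05), with 0.33 ± 0.28 after carbon ions and -1.19 ± 0.47 after gamma rays. RPN13 differed by 1.12 (0.64 to 1.61) and RPN10 by 1.00 (0.57 to 1.44). In 20 genes the arrays did not overlap, against 20.2% of all genes. The count was 10 without carbon ion array 1, and 8 without gamma ray array 2 or array 3. UMP1 and BLM10 did not pass: their differences were 0.26 (-0.15 to 0.67) and 0.076 (-0.32 to 0.47).

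The median over the genes of the core particle lay farthest from the control after each of the 4 radiations, that of the lid next and that of the base nearest. This order did not hold on each array or under each alternative. After thermal neutrons their medians were 1.05, 0.81 and 0.99, and all genes of each rose, beside 19.9% of all genes. After carbon ions the medians were 0.27, 0.13 and 0.21. There 1, 0 and 0 genes were called higher (5, 2 and 2 at an unadjusted p under 0.05), beside 9.7% of all genes. After gamma rays the medians were -0.50, -0.31 and -0.48, with 8 of 14, 2 of 9 and 6 of 9 genes lower. Limma called 22.4% of all genes lower there, and the 2 of 9 in the base are near that share. The carbon ion base median fell to 0.016 without array 3, against 0.13 with all arrays. After thermal neutrons the order rests on the choice of summary: the medians taken array by array averaged 1.03 ± 0.11 in the core, 1.02 ± 0.13 in the base and 0.97 ± 0.071 in the lid. After carbon ions these averages were 0.26 ± 0.21, 0.079 ± 0.13 and 0.13 ± 0.12, and after gamma rays -0.45 ± 0.23, -0.30 ± 0.24 and -0.45 ± 0.23. To 3 digits the gamma ray averages were -0.448 in the core and -0.453 in the lid, so core and lid changed places there too. Without gamma ray array 1 the medians over genes were -0.59 in the core and -0.63 in the lid. Without fast neutron array 1 they were 0.32 and 0.34. The parts were read on the same arrays, so the gap between them on each array is the closer comparison. Core minus base was -0.16, -0.15 and -0.13 on the gamma ray arrays (-0.15 ± 0.015), and 0.15, 0.10 and 0.28 on the carbon ion arrays (0.18 ± 0.094). Both gaps kept their sign and were larger than their spread. On the thermal neutron arrays core minus base was 0.21, -0.020 and -0.15 (0.014 ± 0.18), within its spread. Core minus lid was within its spread after thermal neutrons (0.057 ± 0.18), carbon ions (0.12 ± 0.15) and gamma rays (0.0051 ± 0.072), although the core was above the lid on all 3 carbon ion arrays. Base minus lid was 0.16, 0.083 and 0.21 on the gamma ray arrays (0.15 ± 0.063), also of 1 sign and larger than its spread. It was within its spread after thermal neutrons (0.043 ± 0.15) and carbon ions (-0.054 ± 0.063). No test was run on these gaps.

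Fast neutrons gave medians of 0.47, 0.085 and 0.30 for core, base and lid. There 4, 0 and 1 genes were higher (8, 1 and 4 at an unadjusted p under 0.05), beside 5.06% of all genes. With the low-power scan of array 2 the medians were 0.51, 0.20 and 0.27, with 9, 1 and 4 genes higher and RPN2 of the base lower. Limma then called 13.0% of all genes higher and 14.0% lower. Array by array, with both scans averaged, the core median was above the base median on 7 of 12 arrays and above the lid median on 9. The base was above the lid on 6. On gamma ray arrays the base was above both other parts all 3 times, and on carbon ion and fast neutron arrays the core was above the base all 3 times. With both scans of array 2, core minus base on the fast neutron arrays was 0.41, 0.029 and 0.36 (0.27 ± 0.21). Base minus lid was -0.11, -0.23 and -0.12 (-0.15 ± 0.064). Core minus lid was within its spread (0.12 ± 0.27) with both scans, but its sign on array 2 depended on the scan. In the low-power scan of array 2 the medians were 0.42, 0.25 and 0.38 for core, base and lid. There the core was above the lid, as on the other fast neutron arrays. The mean and spread of the gaps were not taken with that scan, and no gap was tested. On thermal neutron array 3 the base had the highest median of the parts (1.17) although it held the lowest structural subunit, RPN2.

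**Figure D4:**
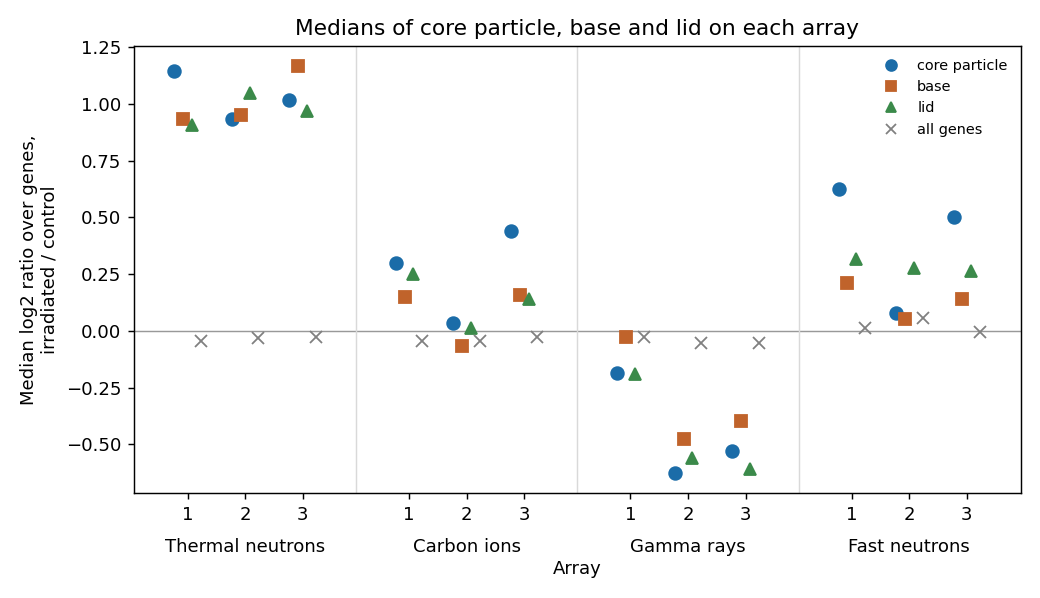
Median log2 ratio of irradiated over control (vertical axis) over the genes of core particle, base and lid, and over all genes, on each of the 12 arrays (horizontal axis, grouped by radiation). The 3 parts lie together near 1 on the thermal neutron arrays, with all genes near 0, and gamma ray array 1 lies closer to 0 than arrays 2 and 3.

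The transcript of RPN4 (YDL020C) did not follow its target genes. Thermal neutron arrays gave it 0.083, 0.11 and -0.30 (-0.032 ± 0.23, adjusted p = 0.85), with a 95% interval of -0.30 to 0.24. Carbon ion arrays gave -0.52, -0.18 and -0.39 (-0.36 ± 0.17, adjusted p = 0.055, interval -0.63 to -0.093). Gamma ray arrays gave 0.041, -0.081 and 0.045 (0.0014 ± 0.072, adjusted p = 0.99, interval -0.27 to 0.27). It passed the test in none of these. After carbon ions it was below 0 on all 3 arrays, and over the alternative settings its adjusted p ran from 0.012 with array weights to 0.27. Fast neutron arrays gave -0.0055, -0.21 and -0.37 (-0.20 ± 0.18, adjusted p = 0.42), and -0.15 ± 0.19 with the low-power scan of array 2, again below 0 on each array and short of the threshold.

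Set beside the median of the 33 structural subunits on the same array, RPN4 was lower by 0.94, 0.85 and 1.27 on the 3 thermal neutron arrays. It was the lowest of the 37 genes on each of them, and on carbon ion arrays 1 and 3. On gamma ray arrays it was higher than that median by 0.22, 0.47 and 0.56, with 27, 33 and 33 of the 37 genes below it. Its differences between radiations did not pass, although thermal neutrons minus carbon ions reached an adjusted p of 0.029 under 1 alternative: -0.034 (-0.42 to 0.35) for thermal neutrons minus gamma rays, 0.33 (-0.051 to 0.71) for thermal neutrons minus carbon ions and -0.36 (-0.75 to 0.017) for carbon ions minus gamma rays.

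**Figure D5:**
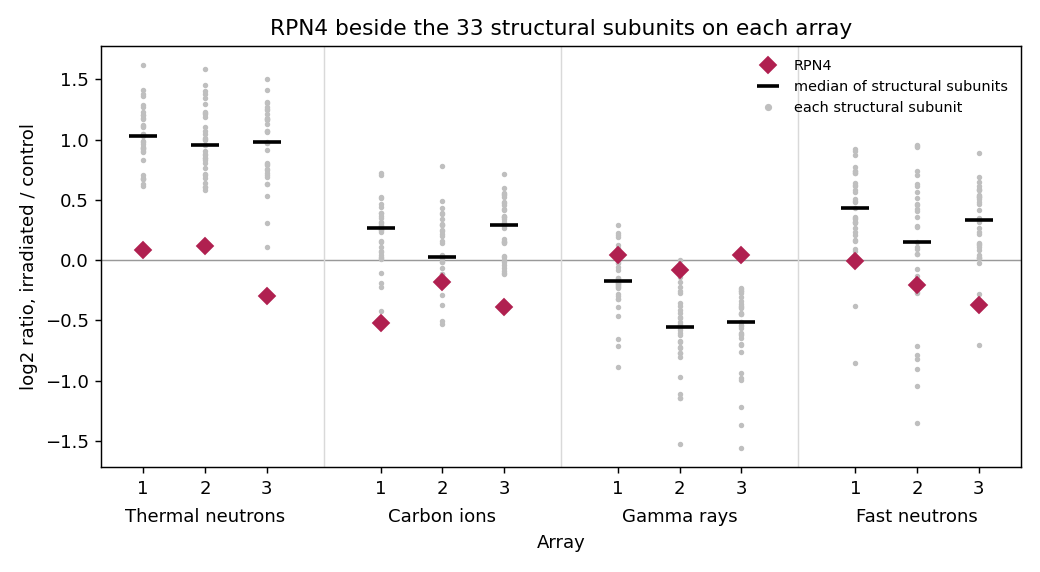
Log2 ratio of irradiated over control (vertical axis) of RPN4 (diamonds) and of each of the 33 structural subunits (dots, with their median as a bar) on each of the 12 arrays (horizontal axis, grouped by radiation). RPN4 lies under every subunit on the 3 thermal neutron arrays and above the subunit median on the 3 gamma ray arrays.

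Of genes known to act on RPN4 or its protein, 7 were tested. After thermal neutrons 5 rose and 1 fell, beside 19.9% and 21.2% of all genes. HSF1, YAP1 and PDR1, transcription factors that activate RPN4, rose by 0.69 ± 0.23, 0.59 ± 0.13 and 0.51 ± 0.18 (adjusted p = 0.0014, 0.0044 and 0.016). UBR2, the ubiquitin ligase that marks Rpn4 for destruction, rose by 0.57 ± 0.0081 and RAD6, its conjugating enzyme, by 0.50 ± 0.18, while MUB1, the adaptor of that ligase, fell by 0.57 on the log2 scale (adjusted p = 0.0025, 0.011 and 0.013). After gamma rays PDR3, MUB1 and RAD6 fell, 3 of 7 beside 22.4% of all genes, and limma called 0 higher (0 also at an unadjusted p under 0.05). RAD6 was at 0.50 after thermal neutrons and -1.19 after gamma rays, a difference of 1.69 (adjusted p = 6.2e-05). After carbon ions YAP1 rose (0.40 ± 0.15) and MUB1 fell (-0.51 ± 0.44), 1 of 7 in each direction, near the 9.7% and 11.9% of all genes. With fast neutrons limma called 0 of 6 tested (1 higher at an unadjusted p under 0.05, and 1 called higher with the low-power scan of array 2), and YAP1 was at 0.59 ± 0.35 (adjusted p = 0.069).

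Of the assembly chaperones other than UMP1, 6 of 8 rose and 0 fell after thermal neutrons (7 and 0 at an unadjusted p under 0.05), beside 19.9% and 21.2% of all genes called by limma. Their median was 0.56. TMA17, a chaperone of base assembly, was highest at 1.37 ± 0.19 (adjusted p = 8.6e-05), while HSM3, also of the base, was at -0.22 and did not pass. After carbon ions TMA17 (1.25 ± 0.44) and IRC25, a core chaperone (0.47 ± 0.11), rose, 2 of 8 beside 9.7% of all genes. After gamma rays TMA17 rose (0.48 ± 0.20), while IRC25 (-0.84 ± 0.24) and ADD66, another core chaperone (-0.63), fell. These 1 and 2 of 8 are near the 17.6% and 22.4% of all genes called higher and lower after gamma rays. After fast neutrons limma called 0 of the 8 (4 higher and 1 lower at an unadjusted p under 0.05), and 3 higher and 1 lower with the low-power scan of array 2.

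Genes that build, carry and edit ubiquitin chains rose in 14 of 17 tested after thermal neutrons and fell in 2, beside 19.9% and 21.2% of all genes, with a median of 0.78. DDI1, a shuttle factor also known as induced by DNA damage, was highest at 1.74 ± 0.30, then HUL5, a ligase of the proteasome, at 1.38 ± 0.14, and the polyubiquitin gene UBI4 at 1.31 ± 0.25. RSP5, a ubiquitin ligase, and SAN1, a nuclear quality control ligase, fell (-0.64 and -0.66). After carbon ions UBI4 (0.80 ± 0.30) and the conjugating enzyme UBC5 (1.17 ± 0.16) rose and SAN1 fell (-0.58), 2 and 1 of 17, near or below the 9.7% and 11.9% of all genes. After gamma rays UBC5 (0.67 ± 0.15) and DDI1 (0.52 ± 0.15) rose, and 3 fell, among them UBC4 (-0.66 ± 0.094). These 2 and 3 of 17 are below the all-gene shares of 17.6% and 22.4%. UBC4 and UBC5 are near-identical paralogs, and how far their probes share signal was not tested. After fast neutrons DDI1 (0.82 ± 0.37) and DSK2, a shuttle factor (0.77), rose among 16 tested, beside 5.06% of all genes, and 3 were higher and 1 lower with the low-power scan of array 2.

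Genes of proteasome localisation and stationary phase were 3. SPG5, a proteasome regulator of stationary phase, fell after thermal neutrons (-0.69) and rose after gamma rays (0.73). STS1, which brings proteasomes into the nucleus, fell after gamma rays (-0.55) and was at 0.11 after thermal neutrons. Limma called 21.2% of all genes lower after thermal neutrons, beside this 1 of 3. After gamma rays it called 17.6% higher and 22.4% lower, beside 1 of 3 in each direction. FUB1, a proteasome-binding protein, passed in none of the 4 radiations.

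The genes closest to the proteasome pattern were found by the root mean square difference from the median of the 33 structural subunits over the 9 arrays of the first table, among 4703 genes with a value on all 9. The subunits themselves lay between 0.14 and 0.59 from their median (median 0.25), RPN4 at 0.74 and the median gene at 0.78. The closest of 4666 other genes was UBP6, the deubiquitinase that sits on the proteasome base, at 0.12. It had 0.97 ± 0.18 after thermal neutrons, 0.17 ± 0.12 after carbon ions and -0.31 ± 0.29 after gamma rays. The next were UBX4, AIM9, SND3, MIX17, ATX1, CPP2, CAP1, YHR112C and GLO2, at 0.15 to 0.20. In all, 29 genes outside the proteasome lay within 0.25. Within 0.59, the distance of the farthest subunit (RPN8), lay 1074 of the 4666, so the outer subunits were no closer than many other genes.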

How the data were processed

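The authors deposited log2 ratios per probe, normalised by LOWESS on spots with flag value 0, per the labels; the log base was settled from column minima at log2 of a ratio of 0.01, and the direction (Cy5 irradiated over Cy3 control) from the channel labels. Thermal neutrons, carbon ions and gamma rays share 1 table (9 arrays), and fast neutrons have another on a different array type, so they were not tested against the others. Scans of an array were averaged, then probes of a gene (5446 and 5513 of 6912 probes carry 1 symbol). limma 3.58.1 in R 4.3.3 (lmFit, moderated variances, two-sided) tested each radiation against 0 and the differences, with Benjamini-Hochberg adjustment over all genes tested, on genes with values on all 3 arrays of each radiation compared. The fit was tested on simulated data. The number of arrays limits the precision.

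Members and gene lists were chosen with earlier results of these data known. Array values are given for RPN4, UMP1, ECM29, BLM10, SEM1, the 2 highest and 2 lowest of core, base and lid after thermal neutrons, and up to 3 called genes per direction and radiation; any other member or list gene may be named. POC4, UFD4, UBR1, TOM1 and SSM4 (DOA10) had no named probe, PDR3 none in the fast neutron table, and SAN1 too few values there. Promoter and protein sequences were not used here. Gene neighbours come from RefSeq's R64 annotation. Alternatives were median centring, single scans, 2 of 3 arrays, separate fits, array weights, a replicate block and leaving out arrays; centring by probe number and the low-power scan of fast neutrons array 2 were added after seeing the data.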

Additional observations from a re-analysis of the deposited data

Results flagged for a closer look

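Values in this section differed between radiations by limma's test of the difference itself, at adjusted p under 0.05. For thermal neutrons minus gamma rays this held for 36 of the 37 proteasome genes, beside 20.4% of all genes called higher. The largest differences were in PUP2 (2.27), PRE6 (2.00) and SEM1 (1.93). For thermal neutrons minus carbon ions the count was 23, beside 5.8% of all genes, led by RPT1 (1.23), RPT4 (1.19) and PRE2 (1.14). For carbon ions minus gamma rays the count was 16, beside 11.4% of all genes, led by PUP2 (1.51), RPN13 (1.12) and RPN10 (1.00). All of these were higher in the radiation named first. Dose and time in the cold differ between the radiations and cannot be told apart from their type.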

How the results depend on the processing

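Counts of genes called in either direction after thermal neutrons and for thermal neutrons minus gamma rays stayed between 34 and 36 under all alternatives run. Shares of all genes called were taken for the main setting and for fast neutrons with array 2 from its low-power scan. The other alternatives have none, so their counts cannot be set beside a share. Some calls held under every alternative in which the gene was tested. They were 34 of 36 genes after thermal neutrons (not RPN2 and RPN8) and 6 of 18 after gamma rays (PUP2, PUP1, RPN13, RPN5, RPN8 and RPN10). After carbon ions they were 0 of 3, and after fast neutrons 0 of 6. For the differences it was 35 of 36 for thermal neutrons minus gamma rays and 4 of 23 for thermal neutrons minus carbon ions. For carbon ions minus gamma rays it was 7 of 16. PUP1 had no low-power value on thermal neutron array 2. It was thus not tested there with the low-power scan alone, and it is counted among the 34 and the 35. Carbon ion counts were 5 with median centring, 5 with the low-power scan, 1 in a fit of its arrays alone, 12 with array weights and 1 with a replicate block. Same-numbered arrays did not deviate together (r -0.26 to 0.13 in 9 pairs), and arrays of different numbers gave r of -0.20 to 0.22. Whether same-numbered arrays shared more than the number was not tested further. The replicate block gave 35 for thermal neutrons, 18 for gamma rays, 36 for thermal neutrons minus gamma rays, 19 for thermal neutrons minus carbon ions and 17 for carbon ions minus gamma rays. Fast neutron counts were 3 with median centring, 0 with the high-power scan (limma; 9 higher and 1 lower at an unadjusted p under 0.05), 17 with the low-power scan, 16 with array weights, 15 with centring by probe number and 18 with array 2 from its low-power scan. Leaving out 1 array gave counts from 0 to 1 after carbon ions (7 at an unadjusted p under 0.05 where 0), 7 to 25 after gamma rays, 0 to 19 after fast neutrons (7 and 10 where 0), 5 to 21 for thermal neutrons minus carbon ions and 8 to 20 for carbon ions minus gamma rays. Leaving out 1 array moved the base median after thermal neutrons to between 0.88 and 0.94, the lid median after carbon ions to between 0.058 and 0.20 and the base median after carbon ions to between 0.016 and 0.14. After fast neutrons the base median was -0.0038 with the high-power scan, 0.21 with the low-power scan, 0.24 with array weights, 0.17 with centring by probe number, 0.20 with array 2 from its low-power scan and -0.046 to 0.30 without 1 array; the lid median was 0.34, 0.27, 0.27, 0.28, 0.27 and 0.25 to 0.34. RPT2 after fast neutrons was -0.029 with all arrays and ranged from -0.41 to 0.48 without 1 array; the highest, without array 2, passed (adjusted p = 0.014). Of 3065 values of single genes under an alternative, 184 lost a call, 131 gained one and 1 reversed; causes were not tested.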
